A study of Cricetulus griseus with 6 samples.

Results

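The genes examined after *Xbp1* silencing in CHO-T cells code for proteins of innate pattern recognition: the Toll-like receptor genes *Tlr1* to *Tlr6*, the adaptor *Myd88*, the co-receptor *Cd14*, and the soluble recognition molecules *Ptx3* and *Pglyrp2*. They were taken by gene symbol, and all 10 were found, each on 1 row, among the 27873 entries of the deposited tables. CHO-T cells are Chinese hamster ovary (CHO) cells that carry mouse T-cadherin (*Cdh13*) cDNA from a retrovirus under puromycin selection, and both groups share this background. They were transfected with negative control siRNA (3 libraries) or *Xbp1* siRNA (3 libraries) and harvested on the second day, and poly(A) RNA was sequenced as stranded libraries. XBP1 is a transcription factor of the unfolded protein response downstream of the ER stress sensor IRE1α, and the study silenced *Xbp1* as a way to activate IRE1α, asking which pathway then lowers the release of extracellular vesicles. The study's methods describe its experiments in general as independent biological repeats, while the labels do not say how the 3 libraries of a group were cultured, so the spread between them may be partly technical. Expression is given in FPKM, a fragment count divided by exon length and by library size, which allows levels of different genes to be compared as far as the authors' gene models allow.

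Toll-like receptors are membrane proteins that recognise conserved molecules of microbes. TLR2 pairs with TLR1 or TLR6 at the cell surface and binds lipoproteins, TLR4 binds lipopolysaccharide together with MD-2 (gene *Ly96*) and CD14, TLR5 binds flagellin, and TLR3 binds double-stranded RNA in endosomes. Apart from TLR3, these receptors signal through MYD88 to IRAK kinases, TRAF6 and NF-kB. PTX3 is a secreted long pentraxin that binds microbes and complement and is part of the hyaluronan matrix around the oocyte, and PGLYRP2 is an amidase that cleaves bacterial peptidoglycan. CHO cells lack CD14 on their surface and have long been used, after transfection of CD14, as reporter cells for lipopolysaccharide. Their *Tlr2* gene is known to carry a frameshift, so that a transcript level says nothing about a working receptor.

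The members were put together with this same comparison already known, so their differences between the groups are given as a description, with no p-value, and a call of the fit across all genes is named for a member only as part of that description. In bulk RNA, more cells with a transcript and more of it per cell cannot be told apart. The silenced gene was at its labelled level in every library: *Xbp1* had 26.0, 26.2 and 28.4 FPKM with control siRNA and 2.18, 2.11 and 1.39 FPKM with *Xbp1* siRNA. *Cdh13*, the gene the cells were made to express, had 85.2 ± 0.478 FPKM and 32.9 ± 0.476 FPKM (SD, n = 3 each). The expressed cDNA is of mouse, and how its reads were counted on the authors' gene models was not tested. Its level is therefore not compared with that of other genes. The labelled origin was checked against marker lists. *Vim*, of mesenchymal cells, had 377 ± 10.7 FPKM and 304 ± 13.2 FPKM, and *Gata4*, of gonadal somatic cells, had 39.0 ± 0.328 FPKM and 32.2 ± 1.09 FPKM (SD, n = 3 each). The gonadal factors *Nr5a1* and *Wt1* had control means of only 0.0275 and 0.0327 FPKM, and *Fshr*, *Thy1* and *Krt18* were listed at 0 throughout. Of 13 leukocyte markers found, 7 were listed at 0 in all libraries, among them *Ptprc*, *Adgre1*, *Tyrobp* and *Cd3e*, and the summed level of the list was 5.89 to 6.98 FPKM in the control libraries and 7.92 to 9.21 FPKM after *Xbp1* silencing, most of it *Cd68*, which codes for a lysosomal membrane protein. Its part in the members' differences was not tested. An exact 0 in these tables may also be a failed estimate, since some broadly expressed genes such as *Laptm4b* are listed at 0.

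*Tlr2*, *Ptx3*, *Pglyrp2* and *Tlr1* were expressed at trace levels in control cells and were several times higher in all 3 libraries with *Xbp1* siRNA, while *Myd88* and *Tlr4*, the abundant members, had nearly the same level in both groups. *Tlr3* and *Tlr6* lay between these patterns, with levels under or near 1 FPKM in every library and modestly higher values after silencing. *Tlr5* and *Cd14* were listed at 0 in all 6 libraries. Of the 8 members with a value above 0, 7 had higher values in every *Xbp1* siRNA library than in any control library, and *Myd88* alone overlapped. Among all 14361 genes tested, 26.1% were likewise higher without overlap.

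**Figure D1:**
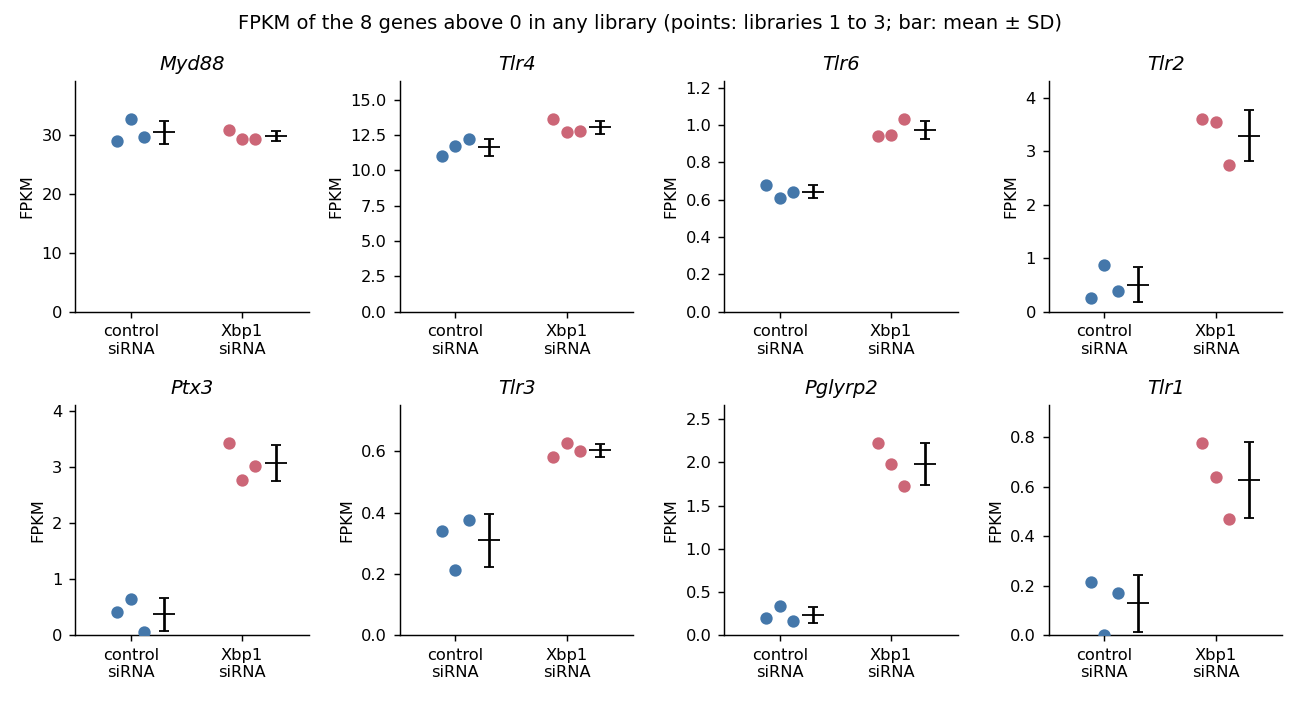
FPKM (vertical axis, from 0, its scale differing between panels) of the 8 genes above 0 in any library, with each point a library and the bar beside it the mean ± SD of the 3 libraries of a group. *Tlr2*, *Ptx3*, *Pglyrp2* and *Tlr1* lie near 0 with control siRNA, at means of 0.506, 0.377, 0.237 and 0.129 FPKM, whereas *Myd88* sits near 30 FPKM in both groups.

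*Tlr2*, the cell surface receptor for lipoproteins, had 0.263, 0.869 and 0.387 FPKM with control siRNA and 3.59, 3.54 and 2.74 FPKM with *Xbp1* siRNA. The lowest silenced library was thus well above control replicate 2, the highest control. The means were 0.506 ± 0.320 FPKM and 3.29 ± 0.477 FPKM (SD, n = 3 each), a 6.49-fold difference. On the log2(FPKM + 0.1) scale, used for the limma fit, where differences of weak genes come out smaller than their ratios, the log2 fold change was 2.60 (standard error 0.36), the 47th largest of all genes tested.

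The FPKM of *Tlr2* fell on whole multiples of a common step, taken as 1 read, which gave 9, 28 and 13 reads with control siRNA and 126, 119 and 109 reads with *Xbp1* siRNA. The libraries are close in depth by the same measure, at 94.0% to 116.2% of control replicate 1. Scaled to that depth, the 3 control libraries had an SD of 11.0 reads around a mean of 17.4, where counting alone would give 4.17. The silenced libraries had an SD of 16.3 reads around a mean of 113, where counting alone would give 10.6. Without control replicate 2, which held 28 of the 50 control reads, the log2 fold change was 3.00.

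*Tlr1* and *Tlr6* code for the dimer partners of TLR2 and lie side by side in the RefSeq gene table of the CriGri-PICRH-1.0 assembly, next to *Tlr10*. *Tlr1* had 0.216, 0 and 0.171 FPKM with control siRNA and 0.775, 0.638 and 0.468 FPKM with *Xbp1* siRNA. The groups did not overlap, and the log2 fold change was 1.81 with a wide standard error of 0.50. Its size depended on the pseudocount, at 0.53 with a pseudocount of 1 and 3.07 with 0.01 (where that of *Tlr2* was 2.84), and under either it missed the limits used for a call. Without control replicate 2, the library at 0, it was 1.29. *Tlr6* had 0.680, 0.611 and 0.640 FPKM in control cells and 0.944, 0.946 and 1.03 FPKM after silencing, a tight pair of groups that differed 1.51-fold (log2 fold change 0.53, standard error 0.19). *Tlr10*, which is not a member and was looked at after its values were seen, had at most 3 reads in any library. The coding sequences of these neighbouring receptors are alike, and how the authors' counting divided shared reads between them was not tested.

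*Tlr4* was the main Toll-like receptor transcript of these cells. It had 11.0, 11.7 and 12.2 FPKM with control siRNA and 13.6, 12.7 and 12.8 FPKM with *Xbp1* siRNA. Every silenced library was above every control library, but by little: the means were 11.6 ± 0.608 and 13.0 ± 0.498 FPKM (SD, n = 3 each), a ratio of 1.12. The log2 fold change of 0.17 (standard error 0.066) ranked 4867 among all genes tested. *Tlr5* was listed at 0 throughout.

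The endosomal receptor *Tlr3*, which binds double-stranded RNA and is itself an interferon-stimulated gene in many cells, had 0.342, 0.212 and 0.377 FPKM in control cells. After silencing it had 0.583, 0.627 and 0.601 FPKM, a narrow range that lay above all control values. The means differed 1.95-fold, with a log2 fold change of 0.80 (standard error 0.28), under the limit of 1 used for a call.

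**Figure D2:**
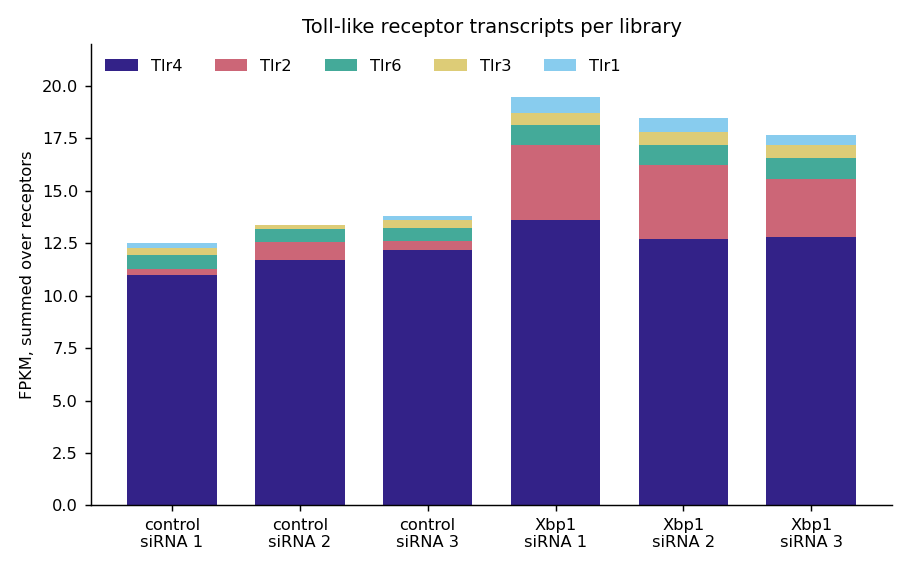
FPKM of *Tlr4*, *Tlr2*, *Tlr6*, *Tlr3* and *Tlr1* stacked for each library (vertical axis, summed FPKM from 0; horizontal axis, the 3 libraries of each group). The stacks reach 12.5 to 13.7 FPKM with control siRNA and 17.6 to 19.5 FPKM with *Xbp1* siRNA, and the *Tlr2* layer widens while that of *Tlr4* keeps nearly the same height.

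Summed over the 5 receptors, the level was 12.5, 13.4 and 13.7 FPKM in the control libraries and 19.5, 18.5 and 17.6 FPKM in the silenced libraries. *Tlr2* made up 52.1% of the difference between the group means, *Tlr4* 26.9%, *Tlr1* 9.33%, *Tlr6* 6.20% and *Tlr3* 5.50%. The composition of the receptor transcripts therefore differed between the groups. *Tlr4* held 87.4% to 88.5% of the sum with control siRNA and 68.9% to 72.5% with *Xbp1* siRNA, and *Tlr2* held 2.11% to 6.49% and 15.5% to 19.2%. Relative to *Tlr6*, *Tlr2* stood at ratios of 0.386, 1.42 and 0.604 in control cells and 3.80, 3.74 and 2.65 after silencing. The *Tlr4* transcript still exceeded that of *Tlr2* 3.60- to 4.67-fold in the silenced libraries, against 13.4- to 41.7-fold in the controls.

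*Myd88*, which links most Toll-like receptors and the interleukin-1 receptor to IRAK kinases, had 28.9, 32.6 and 29.7 FPKM with control siRNA and 30.8, 29.3 and 29.3 FPKM with *Xbp1* siRNA. The groups overlapped, and the log2 fold change of −0.03 had a 95% interval from −0.16 to 0.11. *Cd14*, the lipopolysaccharide co-receptor, was listed at 0 in all libraries, which gives no comparison, as was *Lbp*, the serum protein that hands lipopolysaccharide to it.

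Both soluble molecules showed differences of the size seen for *Tlr2*. *Ptx3* had 0.424, 0.644 and 0.0618 FPKM with control siRNA and 3.43, 2.78 and 3.02 FPKM with *Xbp1* siRNA. By the step taken as 1 read, these values correspond to 7, 10 and 1 reads and to 58, 45 and 58 reads. Control replicate 3 then rests on a single read. The mean difference was 8.17-fold, and the log2 fold change of 2.99 (standard error 0.52) ranked 25 among all genes tested. Without control replicate 3 it was 2.34. Scaled to depth, the control libraries had an SD of 4.86 reads, where counting alone would give 2.49, while the silenced libraries had an SD of 5.43 reads, within the 7.13 that counting alone would give.

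*Pglyrp2* had 0.200, 0.345 and 0.165 FPKM with control siRNA and 2.22, 1.98 and 1.73 FPKM with *Xbp1* siRNA. The 8.34-fold difference was the largest among the members by the ratio of means, and its log2 fold change of 2.65 had a standard error of 0.27, smaller than those of *Ptx3* and *Tlr2*. Within the tolerance of 0.03 reads its values did not fall on whole multiples of a step, nor did those of *Tlr1*, *Tlr3* and *Tlr6*, so no reads are used for these genes. The related *Pglyrp4* was listed at 0 in all libraries.

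By the limits of the study's methods, a Benjamini-Hochberg adjusted p under 0.05 with a log2 fold change beyond ±1, *Ptx3*, *Pglyrp2*, *Tlr2* and *Tlr1* were called higher in the limma fit and no member was called lower. Over all genes tested, 2.69% were called higher and 2.50% lower, and among the 3618 genes with a mean FPKM of 0.1 to 2, the range that holds the 6 weakly expressed members, 6.03% were called higher. Since the members were chosen on this comparison, nothing is read from their share. The median log2 fold change of the 8 members tested was 1.31, beside 0.01 over all genes tested. The call of *Tlr1* was lost without *Xbp1* siRNA replicate 1, where its log2 fold change was 1.66, and without replicate 2, where it was 1.79.

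**Figure D3:**
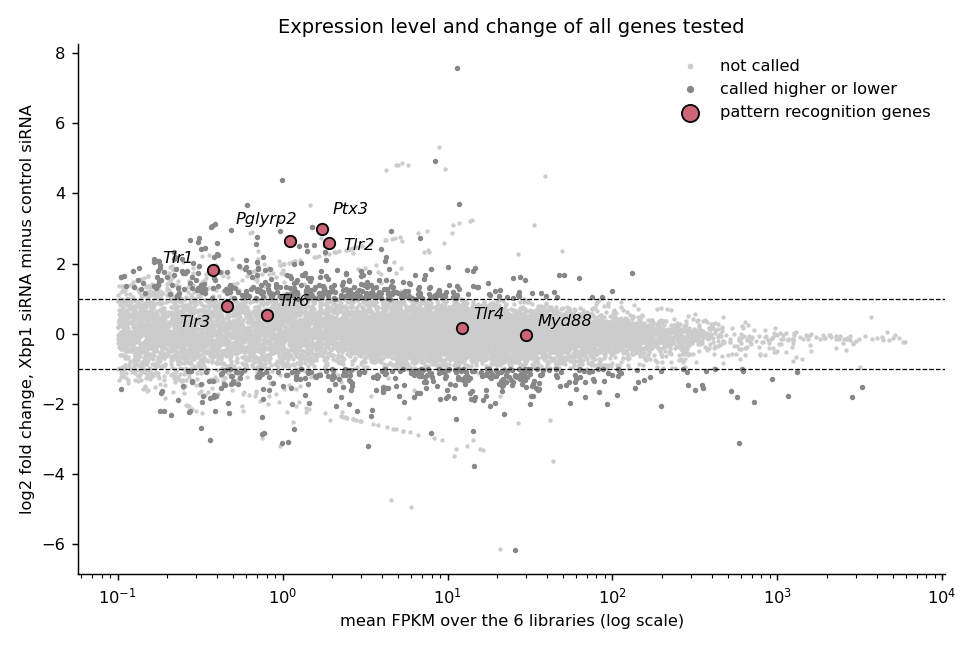
Each point is 1 of the 14361 genes tested, with its mean FPKM over the 6 libraries (horizontal axis, log scale) and its log2 fold change on log2(FPKM + 0.1) (vertical axis); dashed lines mark log2 fold changes of −1 and 1, and large points are the 8 pattern recognition genes. *Ptx3*, *Pglyrp2*, *Tlr2* and *Tlr1*, with mean levels of 1.73, 1.11, 1.90 and 0.378 FPKM, lie above the upper line, and *Tlr4* and *Myd88* lie near 0.

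The order of the levels differed between the groups. In control cells *Myd88* at 30.4 ± 1.96 FPKM (SD, n = 3) and *Tlr4* stood far above the rest, followed by *Tlr6*, *Tlr2*, *Ptx3*, *Tlr3*, *Pglyrp2* and *Tlr1*. Among these 6, each gene's range overlapped with that of the next, so that neighbours in this order did not differ beyond the spread of the libraries. After silencing, *Tlr2* and *Ptx3* followed *Tlr4*, with ranges that overlapped each other, and *Pglyrp2* came next without overlap with either neighbour. *Tlr6* stood below it, and *Tlr1* and *Tlr3* came last with overlapping ranges. By the mean over all 6 libraries, controls included, these were weak transcripts. On that mean, 75.4% of all genes tested were higher than *Tlr2* and 88.4% were higher than *Tlr1*.

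The members did not vary as 1 block among libraries of the same group. Control replicate 2 had the highest control value of *Tlr2*, *Ptx3*, *Pglyrp2* and *Myd88* and the lowest of *Tlr1*, *Tlr3* and *Tlr6*. *Xbp1* siRNA replicate 1 had the highest value of its group for 6 of the 8 members and the lowest for *Tlr3* and *Tlr6*. Genes with the most similar profile over the 6 libraries were named by Pearson's r of log2(FPKM + 0.1), among 9372 other genes whose mean reached 1 FPKM. These were *Odc1*, *Znf384* and *Bend3* for *Tlr2* (r of 0.9955, 0.9953 and 0.9950), *S100a11*, *Wnk4* and *Pomgnt2* for *Ptx3* (r of 0.9959, 0.9930 and 0.9923), and *Tmem229b*, *Kyat3* and *Kdelc1* for *Pglyrp2* (r of 0.9992, 0.9987 and 0.9985). The points are 6 libraries in 2 groups, so r mostly reflects the difference between the groups: 496 genes had r above 0.95 with *Tlr2*, 238 with *Ptx3* and 941 with *Pglyrp2*. The changes of the 9 named genes were smaller, with log2 fold changes of 0.29 for *S100a11* to 0.69 for *Kyat3*.

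Other genes of the pathway were examined as 6 lists of 105 genes in all, of which 54 could be tested. By the same limits 3 of them were called higher and 1 lower, beside 2.69% and 2.50% of all genes tested, and by adjusted p alone 19 were higher and 11 lower, beside 20.2% higher and 20.2% lower among all genes. Their median log2 fold change was 0.17.

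Of the genes that help Toll-like receptors reach the membrane and bind ligand, 7 were tested with limma and none was called. The 2 that passed the adjusted p, both higher, missed the fold limit, beside 20.2% of all genes tested that passed as higher. The same 2 had an unadjusted p under 0.05. *Ly96*, the MD-2 partner of TLR4, had 5.80, 4.87 and 6.54 FPKM in control cells and 6.26, 8.40 and 5.26 FPKM after silencing, with overlapping groups (log2 fold change 0.19, adjusted p = 0.455 from limma). *Cnpy3*, a chaperone of the surface receptors, was 43.9 ± 2.78 FPKM and 67.0 ± 4.66 FPKM (SD, n = 3 each), a log2 fold change of 0.61 (adjusted p = 3.20e-04 from limma) that stayed under the limit of 1. For *Hsp90b1*, the ER chaperone GRP94 with which CNPY3 works, the log2 fold change was 0.26 (adjusted p = 2.41e-04 from limma), and for *Unc93b1*, which carries endosomal receptors such as TLR3 out of the ER, it was −0.11 (adjusted p = 0.381 from limma). *Lbp*, *Ly86*, *Cd180* and *Tril* were listed at 0. Of the other receptors, *Tlr8* and *Tlr9* were listed at 0 and *Tlr7* had at most 0.0632 FPKM.

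Of 24 downstream adaptors, kinases and transcription factors tested, only *Mapk14* was called. *Mapk14*, the p38α kinase, fell from 42.2, 46.5 and 38.1 FPKM to 17.6, 16.3 and 16.5 FPKM, with clearly separate groups and a log2 fold change of −1.32 (adjusted p = 1.88e-05 from limma). For *Mapk8*, the JNK1 kinase, the log2 fold change was −0.71 (adjusted p = 6.64e-04 from limma). In the other direction, *Irak1*, a kinase recruited by MYD88, had 25.8 ± 0.438 FPKM and 40.2 ± 1.67 FPKM (SD, n = 3 each; log2 fold change 0.63, adjusted p = 4.73e-05 from limma), and for *Irf7*, an interferon regulatory factor, the log2 fold change was 0.83 (adjusted p = 0.00478 from limma). Without the fold limit, 7 of the 24 passed as higher and 7 as lower, beside 20.2% higher and 20.2% lower among all genes tested. With so few genes nothing is read from these counts.

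Among 10 negative regulators tested, 2 were called, both higher, beside 2.69% called higher over all genes, and with so few genes nothing is read from this count. *Tnfaip3* codes for A20, which edits ubiquitin chains on TRAF6 and RIPK1, and rose from 8.50, 7.82 and 7.35 FPKM to 21.6, 20.6 and 19.1 FPKM (log2 fold change 1.36, adjusted p = 1.84e-05 from limma). *Il1rl1* codes for ST2, the receptor of interleukin-33, which also restrains MYD88 signalling, and rose from 0.946 ± 0.180 FPKM to 2.05 ± 0.154 FPKM (SD, n = 3 each; log2 fold change 1.05, adjusted p = 0.00349 from limma). The call of *Il1rl1* was close to the fold limit and was lost without control replicate 1, at 0.92, and without *Xbp1* siRNA replicate 1, at 1.00 after rounding, and also with a pseudocount of 1, at 0.65, and after quantile normalization, at 0.94. The deubiquitinases *Otud7b* and *Cyld* gave log2 fold changes of −0.50 (adjusted p = 1.69e-04 from limma) and −0.43 (adjusted p = 0.0221 from limma).

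**Figure D4:**
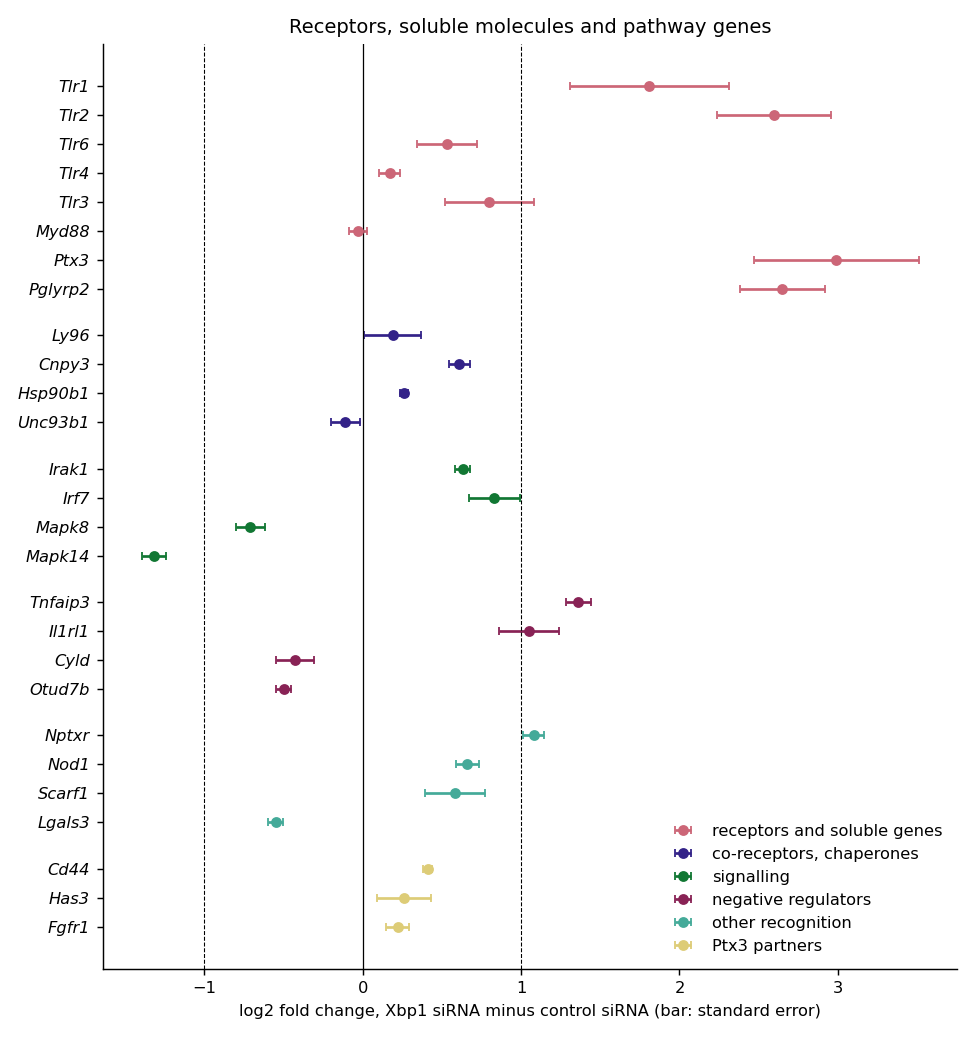
Log2 fold change on log2(FPKM + 0.1), *Xbp1* siRNA minus control siRNA (horizontal axis), with its standard error as a bar. The 8 members tested are at the top, and the pathway genes named in the text form 5 groups below them (vertical axis). Dashed lines mark −1 and 1. *Ptx3*, *Pglyrp2* and *Tlr2* lie beyond 2, while the pathway genes range from −1.32 for *Mapk14* to 1.36 for *Tnfaip3*.

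Of the other recognition molecules, 24 were found, 13 of them listed at 0, and 7 were tested. *Nptxr*, which codes for the neuronal pentraxin receptor and shares the pentraxin fold with PTX3, was called higher, from 13.2 ± 1.00 FPKM to 27.9 ± 1.04 FPKM (SD, n = 3 each; log2 fold change 1.08, adjusted p = 2.42e-05 from limma). For *Nod1*, a cytosolic sensor of peptidoglycan fragments, the log2 fold change was 0.66 (adjusted p = 3.31e-04 from limma) and for the scavenger receptor *Scarf1* it was 0.58 (adjusted p = 0.0427 from limma). *Lgals3*, the glycan-binding galectin-3, had 138 ± 3.62 FPKM and 94.5 ± 5.55 FPKM (SD, n = 3 each; log2 fold change −0.55, adjusted p = 1.12e-04 from limma). The short pentraxins *Crp* and *Apcs* were listed at 0.

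None of the 6 partners of PTX3 tested with limma was called. The 3 that passed the adjusted p, all higher, missed the fold limit, beside 20.2% of all genes tested that passed as higher. With so few genes nothing is read from this count. The same 3 had an unadjusted p under 0.05. *Cd44*, the hyaluronan receptor, was the most abundant, at 203 ± 2.89 FPKM and 269 ± 4.32 FPKM (SD, n = 3 each; log2 fold change 0.41, adjusted p = 4.20e-05 from limma). For the growth factor receptor *Fgfr1* the log2 fold change was 0.22 (adjusted p = 0.0423 from limma) and for the hyaluronan synthase *Has3* it was 0.26 (adjusted p = 0.263 from limma). *Tnfaip6*, which joins PTX3 to hyaluronan in the matrix around the oocyte, had at most 6 reads in a library, and *Fgf2* and the 3 genes of C1q were listed at 0.

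**Figure D5:**
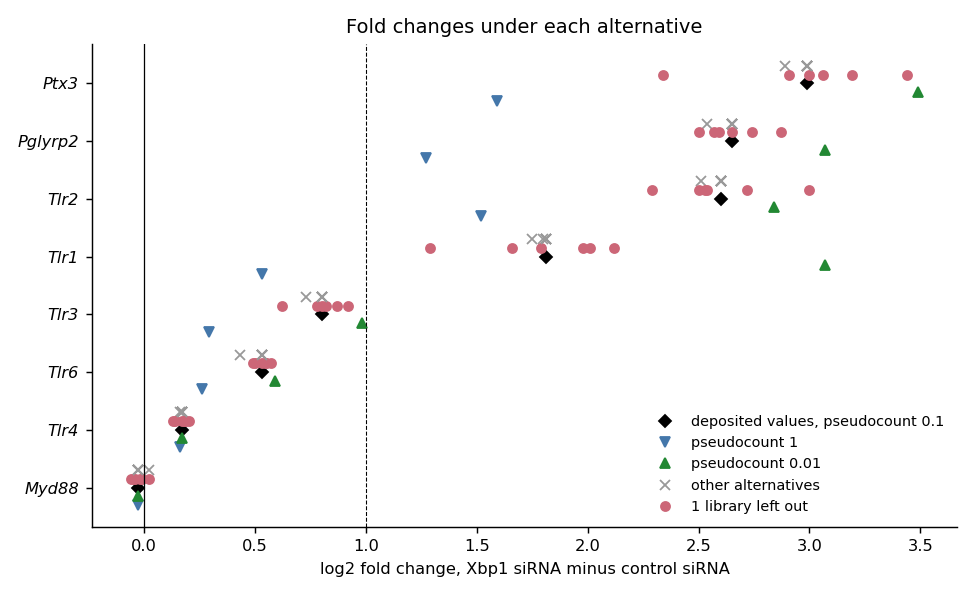
Log2 fold change (horizontal axis) of the 8 members tested (vertical axis) under each way of computing it; diamonds are the values given in the text, and the dashed line marks the limit of 1. A pseudocount of 1 draws *Ptx3* to 1.59, *Tlr2* to 1.52 and *Pglyrp2* to 1.27, and *Tlr1* is the member whose values spread most, from 0.53 to 3.07.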

How the data were processed

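The authors sequenced stranded poly(A) libraries and deposited FPKM, 1 library per file. HISAT2 2.1.0 and Cuffdiff 2.2.1 are listed in the submitters' processing notes, and the genome build and annotation are not given in the sources used here. The raw counts and the study's DESeq2 analysis were not used here, since FPKM are not counts. Genes with a mean of at least 0.1 FPKM entered a limma 3.58.1 fit (R 4.3.3, lmFit, eBayes with trend) of log2(FPKM + 0.1), with Benjamini-Hochberg adjustment over all genes tested, and the fit was tested on simulated data. Rows sharing a symbol were kept apart.

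Total read depth is not given. Reads were recovered where depth-scaled FPKM fell on whole multiples of a step within 0.03 reads, plus 0.002 per read. Of 3065 genes with a mean of up to 0.8 FPKM and values above 0 in at least 4 libraries, 80.2% did so. *Tlr2* and *Ptx3* have higher means than that. The largest step that fitted was taken as 1 read, so the counts are the lowest possible. An SD from counting alone is the square root of the mean reads.

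The members and all lists were chosen with earlier results of these data known. Of each pathway list, the genes called were named, filled up to 4 with those of largest absolute log2 fold change among genes with a mean of at least 1 FPKM. *Tlr10*, *Lbp* and other genes listed at 0 or with few reads were named after their values were seen. A gene that this rule names is not reported here, though the counts of its list include it. The 3 genes of most similar profile are named for *Tlr2*, *Ptx3* and *Pglyrp2*. Alternatives were pseudocounts, filters, scalings, eBayes without trend, the replicate number as a block, no fold limit, and leaving out each library. A search of promoter motifs was planned and not run, as no sequences were used here. Python 3.11.15, numpy 2.4.6, pandas 2.3.3 and scipy 1.17.1 were used, and matplotlib 3.10.9 for figures.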

Additional observations from a re-analysis of the deposited data

How the results depend on the processing

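Of 117 values recomputed for the 8 members, none reversed direction among called genes and 113 kept their side of the call. The other 4 belong to *Tlr1*. A pseudocount of 1, which shrinks the changes of weak genes by construction, left 114 genes higher and 205 lower over the whole table and 3 members called. Testing only genes whose mean reached 1 FPKM left out *Tlr1*, *Tlr3* and *Tlr6* and gave 242 genes higher. By adjusted p alone 2898 genes were higher and 2904 lower, and of the pathway lists 19 and 11. When each library was omitted in turn, 329 to 380 genes were higher, 346 to 369 were lower, 3 to 4 members were higher, and 2 to 3 pathway genes were higher with 1 lower each time. The log2 fold change of *Xbp1* itself lay between −3.89 and −3.28 over all alternatives.

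Same-numbered libraries did not deviate together (r across genes of −0.029, −0.027 and −0.012 after subtracting each group's mean), so the numbers were not used for pairing. With the replicate block 363 genes were called higher and 353 lower, and 4 members higher as before. The median log2 fold change of all genes was 0.01 as deposited, 0.00 after median-ratio scaling and 0.02 after quantile normalization. *Myd88* changed sign with its value near 0, from −0.06 to 0.02. With a tolerance of 0.1 reads in place of 0.03, *Pglyrp2* also fell on whole reads. These were 11, 18 and 9 with control siRNA and 126, 108 and 111 with *Xbp1* siRNA. The allowance of 0.002 per read was kept, and it widens the window at high counts. The *Pglyrp2* read numbers of the silenced libraries are therefore approximate. Depth limits the control level of *Ptx3*, which by the step taken as 1 read rests on 18 reads in all.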

Other observations

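The genes beside the members were looked at after the members' values were seen, by the order of the RefSeq gene table. Of 54 neighbouring genes, 3 on each side of a member, 37 were tested, and 1 was called higher and 3 lower, beside 2.69% and 2.50% of all genes tested. With so few genes nothing is read from these counts. *Klf3*, a transcription factor gene beside *Tlr10*, fell from a mean of 8.70 FPKM to 4.10 FPKM (log2 fold change −1.07, adjusted p = 5.90e-05 from limma), beside the higher values of *Tlr1* and *Tlr6* given above. The other genes called lower were LOC100750695, next to *Tlr4*, with a log2 fold change of −1.47 (adjusted p = 0.00584 from limma), and LOC107977823, near *Ptx3*, with −1.40 (adjusted p = 0.0196 from limma). *Fam114a1* and *Tmem156*, beyond *Tlr6*, had log2 fold changes of −0.05 (adjusted p = 0.690 from limma) and −0.22 (adjusted p = 0.00343 from limma). The gene called higher was LOC103159251, the second gene before *Ptx3*, with means of 0.575 FPKM and 2.04 FPKM (log2 fold change 1.68, adjusted p = 0.00248 from limma), while *Ccnl1* on the other side of *Ptx3* had −0.03 (adjusted p = 0.581 from limma). The tested named neighbours of *Tlr2* were *Trim2* with a log2 fold change of 0.19 (adjusted p = 0.597 from limma), *Mnd1* with −0.42 (adjusted p = 0.00528 from limma) and *Tmem131l* with 0.16 (adjusted p = 0.0553 from limma), none of them called.

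In the ovary and mesenchymal marker list used to check the cells, 7 genes were tested, and 2 were called higher after *Xbp1* silencing, beside 2.69% of all genes tested. They were *Epcam* and *Cdh1*, and the keratin gene *Krt18* of the same list was listed at 0. *Epcam* rose from 1.94, 1.80 and 1.73 FPKM to 5.44, 4.20 and 4.52 FPKM (log2 fold change 1.32, adjusted p = 2.56e-04 from limma). *Cdh1*, which codes for E-cadherin, rose from 8, 1 and 5 reads to 13, 14 and 23 reads, and its groups did not overlap. Its log2 fold change was 1.29 (adjusted p = 0.0489 from limma), barely within the limit for a call, at a mean of 0.283 FPKM. Whether the calls of *Epcam* and *Cdh1* hold under the alternatives was not examined. The mesenchymal genes *Vim* and *Pdgfrb* had log2 fold changes of −0.31 (adjusted p = 7.38e-04 from limma) and −0.65 (adjusted p = 0.00289 from limma). For the gonadal genes *Gata4*, *Amh* and *Inha* they were −0.28 (adjusted p = 0.00161 from limma), 0.13 (adjusted p = 0.658 from limma) and 0.43 (adjusted p = 0.185 from limma).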
